A study of Mus musculus with 57 samples.

Results

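The genes described here are 40 listed genes of T cells and natural killer (NK) cells, measured in the mouse distal colon. A listed gene was a member when a probe set of the array named it and no other gene, and its brightest such probe set was used. That left 38 of the 40 listed genes, out of 22180 genes measured in the same way. Cd247 and Lck had no such probe set matched and were not analysed here. The members fall into 7 groups by role: CD3 chains, co-receptors, other surface receptors, signalling proteins, transcription factors, cytotoxic and NK cell genes, and inhibitory receptors.

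Colon and tumor RNA came from C57BL/6 mice labelled as adults of 18 to 24 weeks, and the treatment protocol names females. In INSRfl/fl mice (called fl/fl here) loxP sites flank the insulin receptor gene, and villin-CRE-INSR-/- mice (called knockout here) lack it where the villin promoter drives Cre, which is the intestinal epithelium and not the T or NK cells. Mice were untreated, or received the carcinogen AOM by injection at 7.4 mg/kg and then DSS, which injures the colon lining, at 3% for 7 days in week 2. Week 5 was the time of sampling, called 3 weeks after DSS in the labels. There were 10 arrays each of untreated fl/fl colon, untreated knockout colon, AOM+DSS fl/fl colon and AOM+DSS knockout colon, 8 of AOM+DSS fl/fl tumors and 9 of knockout tumors. Samples are labelled biological replicates, and whether colon and tumor samples share mice is not stated.

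T cells recognise peptides on MHC molecules through a receptor whose signal passes into the cell through the CD3 chains. CD4 marks helper and regulatory T cells, CD8 marks cytotoxic T cells, and NK cells kill without that receptor, using granules that hold perforin and granzymes. In the gut such cells lie within the epithelium, in the lamina propria and in lymphoid follicles, and regulatory T cells that express Foxp3 restrain inflammation there.

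Values are log2 expression after RMA, a method that scales all arrays to 1 distribution. RMA compresses the changes of dim probe sets, so a fold change is that of the array signal. Themis, Eomes and Gzma had means over all arrays below the 25th percentile of genes, at 5.01. Levels of different genes were not compared. Each comparison was fitted with limma over all 57 arrays and 22180 genes, with a threshold of 0.05 on the adjusted p. In bulk tissue, fewer cells of a type and less RNA per cell cannot be told apart.

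The tissue label was checked against 10 epithelial genes, whose mean lay between 11.21 and 11.55 in the 6 groups, so all groups held epithelium. Other cell types differed between groups. The mean of 9 B cell genes was 6.38 ± 0.58 in untreated fl/fl and 6.22 ± 0.46 in untreated knockout colon (SD, n = 10 each). It was 7.34 ± 0.66 and 7.98 ± 0.23 in AOM+DSS colon (n = 10 each), and 6.10 ± 0.64 (n = 8) and 6.13 ± 0.32 (n = 9) in tumors. The mean of 10 smooth muscle genes lay between 11.36 and 11.55 in the colon groups and was 9.88 ± 0.38 and 9.75 ± 0.49 in tumors. Individual arrays also stood apart. AOM+DSS fl/fl replicate 7 had a Gzma level of 7.31 where the other 9 arrays lay between 3.63 and 4.71, and fl/fl tumor replicate 3 had a B cell mean of 7.65 where the other 7 lay between 5.60 and 6.04. Results that rest on these arrays are given with and without them.

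The first comparison asked how colon in week 5 after AOM+DSS differed from untreated colon of the same genotype. T and NK cell genes were higher after AOM+DSS in both genotypes. In fl/fl mice 23 of 38 members rose and 0 fell, where 12.2% of all genes were called higher and 10.5% lower. In knockout mice 30 of 38 rose and 0 fell, where 16% of all genes were called higher and 14.2% lower. The members' median log2 change was 0.42 in fl/fl and 0.56 in knockout mice, and the median of all genes was -0.04 in both. Levels of 3 members (Cd3e, Cd4 and Cd8b1) did not overlap between the fl/fl groups, against 0.821% of all genes, and 13 did not overlap in knockout mice, against 3.68% of all genes.

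**Figure D1:**
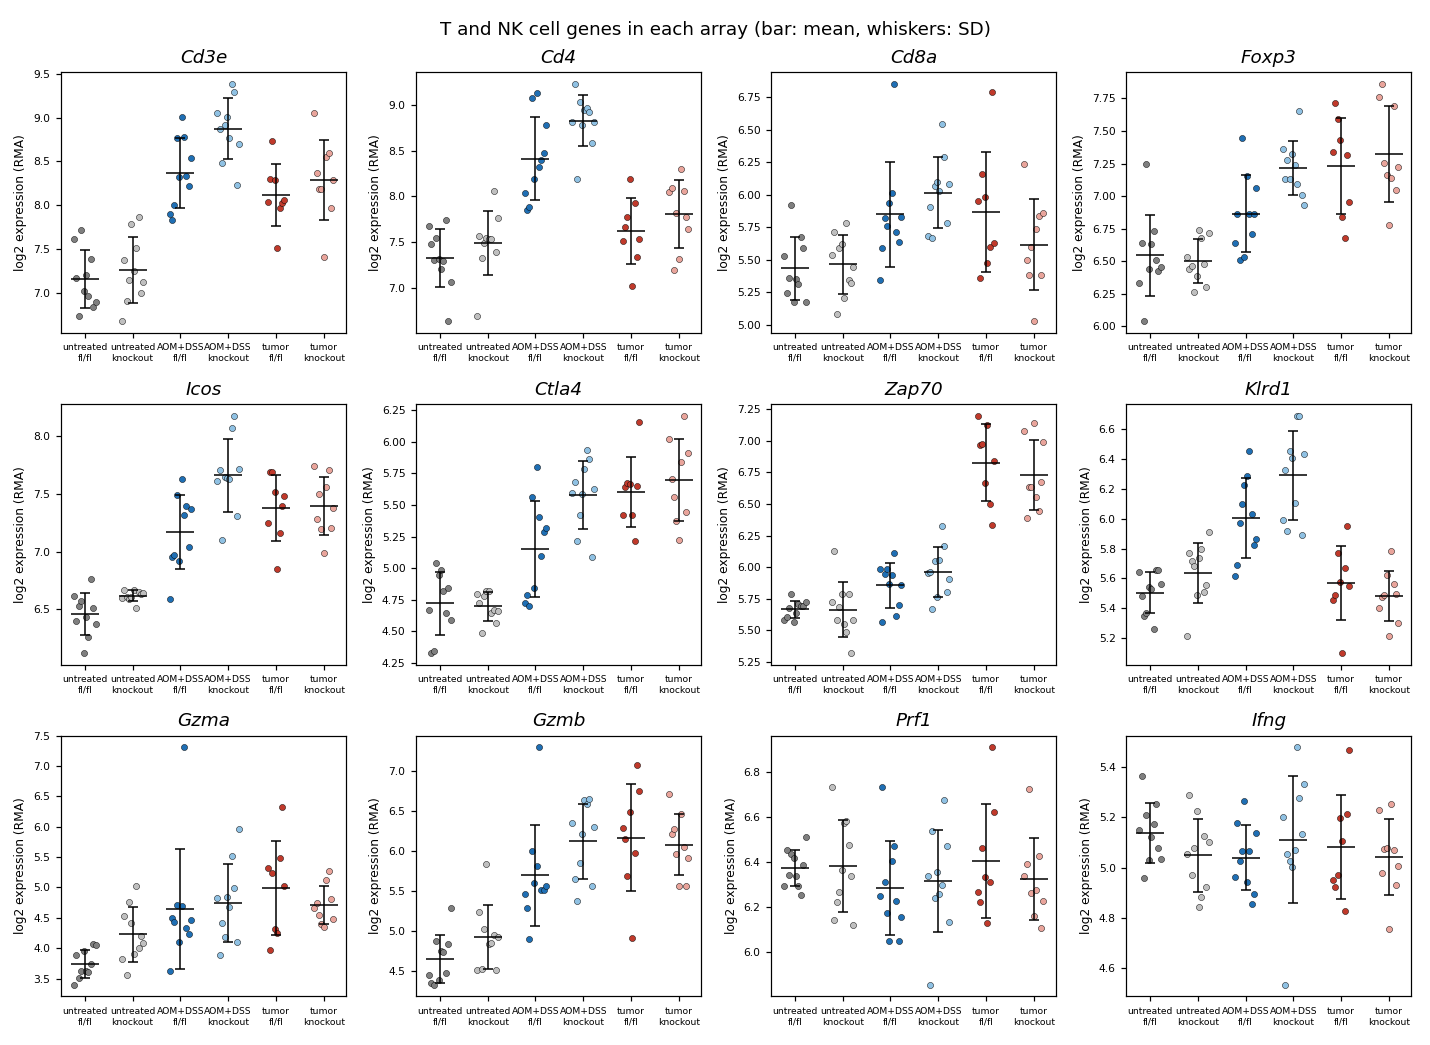
Log2 expression (RMA) of 12 members in each of the 57 arrays, by group on the x axis. Each point is an array, the bar is the group mean and the whiskers are the SD. Cd3e and Cd4 lay higher in all AOM+DSS arrays than in any untreated array of the same genotype, Zap70 lay higher in every tumor than in any colon array of the same genotype, and Prf1 and Ifng stayed within overlapping ranges in all 6 groups.

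The CD3 chains Cd3e and Cd3g, which carry the T cell receptor's signal, had 2 of the 3 largest rises in fl/fl mice. Cd3e ranged from 6.74 to 7.72 (median 7.10) in untreated and from 7.83 to 9.00 (median 8.32) in AOM+DSS fl/fl arrays. It ranged from 6.68 to 7.86 (median 7.20) and from 8.24 to 9.39 (median 8.90) in knockout arrays. Every AOM+DSS array therefore lay above every untreated array of its genotype. Cd3e rose by 1.21 ± 0.16 in fl/fl (log2, SE, limma adjusted p = 1.57e-07, 2.32-fold) and by 1.60 ± 0.16 in knockout mice (adjusted p = 2.91e-11, 3.04-fold). Cd3g rose by 1.34 ± 0.20 and 1.75 ± 0.20. Cd3d, the remaining measured CD3 chain and the neighbour of both on the chromosome, was 0.12 ± 0.096 higher in fl/fl mice (adjusted p = 0.38) and rose by 0.42 ± 0.096 in knockout mice.

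All 3 co-receptor genes rose in both genotypes. Cd4, the helper cell co-receptor, ranged from 6.63 to 7.74 (median 7.30) in untreated and from 7.85 to 9.13 (median 8.36) in AOM+DSS fl/fl arrays. Knockout arrays ran from 6.69 to 8.06 (median 7.53) and from 8.19 to 9.24 (median 8.87). Untreated and treated arrays did not overlap in either genotype, and Cd4 rose by 1.09 ± 0.16 (2.13-fold) and 1.34 ± 0.16 (2.54-fold). Cd8a, a chain of the cytotoxic cell co-receptor, ranged from 5.17 to 5.92 (median 5.36) in untreated and from 5.34 to 6.85 (median 5.79) in AOM+DSS fl/fl arrays. The knockout arrays spanned values from 5.08 to 5.78 (median 5.49) and from 5.66 to 6.54 (median 6.05). The groups overlapped in both genotypes, and the rises were 0.41 ± 0.14 (adjusted p = 0.029) and 0.55 ± 0.14 (adjusted p = 0.0020). Without AOM+DSS replicate 7 the fl/fl change was 0.30 ± 0.13 and no longer passed (limma adjusted p = 0.102), and leaving out either of 2 untreated arrays, replicate 5 or 10, also ended that call (limma adjusted p = 0.055 and 0.053). Cd8b1, the partner chain, rose by 0.46 ± 0.10 and 0.58 ± 0.10.

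Among the other surface receptors, 5 of 7 rose in fl/fl and 7 of 7 in knockout mice. Icos, a co-stimulatory receptor of activated T cells, ranged from 6.12 to 6.76 (median 6.47) in untreated and from 6.59 to 7.63 (median 7.18) in AOM+DSS fl/fl arrays. Levels in knockout arrays ran from 6.51 to 6.67 (median 6.62) and from 7.10 to 8.18 (median 7.64). The knockout groups did not overlap, and Icos rose by 0.71 ± 0.11 and 1.04 ± 0.11. Gpr171, a G protein-coupled receptor, rose by 0.86 ± 0.16 and 1.45 ± 0.16, but its dimmer probe set gave changes of 0.28 ± 0.10 and 0.38 ± 0.10. Cd5 and Cd6, neighbouring genes that tune T cell receptor signals, rose by 0.46 ± 0.094 and 0.24 ± 0.068 in fl/fl mice. In knockout mice they rose by 0.53 ± 0.094 and 0.43 ± 0.068. Thy1, which neurons and fibroblasts also express, rose by 0.47 ± 0.10 and 0.43 ± 0.10. The adhesion receptor Cd2 and the co-stimulatory receptor Cd28 passed in knockout mice alone, at 0.71 ± 0.11 and 0.48 ± 0.11, and their fl/fl changes were 0.29 ± 0.11 (adjusted p = 0.059) and 0.21 ± 0.11 (adjusted p = 0.15). Cd2 passed in fl/fl mice when any of 7 single arrays was left out (limma adjusted p between 0.0295 and 0.0491), and Cd28 for 1 array (limma adjusted p = 0.0298).

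Of the 5 signalling genes, 3 rose in fl/fl and 5 in knockout mice. Ptprc encodes CD45, the phosphatase of nearly all white blood cells, so it does not mark T cells alone. It ranged from 7.68 to 8.94 (median 8.10) in untreated and from 8.56 to 10.41 (median 9.63) in AOM+DSS fl/fl arrays. Among knockout arrays it ranged from 7.67 to 8.88 (median 8.36) and from 9.84 to 10.61 (median 10.11). The groups overlapped in fl/fl and not in knockout mice, and Ptprc rose by 1.32 ± 0.17 (2.49-fold) and 1.82 ± 0.17 (3.52-fold), the largest rise among members in knockout mice. The adaptor Lat rose by 0.40 ± 0.11 and 0.58 ± 0.11, and Themis, needed for T cell selection in the thymus, by 0.28 ± 0.095 and 0.47 ± 0.095. The fl/fl call of Themis was lost for 3 single arrays left out (limma adjusted p between 0.0524 and 0.0604). The kinase Zap70 and the adaptor Skap1 passed in knockout mice, at 0.30 ± 0.095 and 0.32 ± 0.067, and were 0.19 ± 0.095 and 0.11 ± 0.067 in fl/fl mice.

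The transcription factors divided. Stat4, which acts downstream of interleukin-12, ranged from 5.39 to 6.72 (median 6.01) in untreated and from 6.12 to 8.19 (median 7.15) in AOM+DSS fl/fl arrays. In knockout arrays it ranged from 5.75 to 6.50 (median 6.23) and from 7.29 to 8.41 (median 7.87), with no overlap. Stat4 rose by 1.15 ± 0.16 and 1.71 ± 0.16. Ikzf1, which encodes Ikaros and is expressed in B cells as well, rose by 0.70 ± 0.16 and 1.23 ± 0.16. Foxp3, which defines regulatory T cells, ranged from 6.04 to 7.24 (median 6.48) in untreated and from 6.51 to 7.45 (median 6.86) in AOM+DSS fl/fl arrays. Knockout arrays ran from 6.26 to 6.74 (median 6.47) and from 6.93 to 7.66 (median 7.19). The fl/fl groups overlapped and the change of 0.32 ± 0.13 did not pass (adjusted p = 0.059), whereas the knockout groups lay apart and Foxp3 rose by 0.71 ± 0.13 (adjusted p = 1.0e-05). That fl/fl change lay near the threshold and passed when any of 4 single arrays was left out (limma adjusted p between 0.016 and 0.0448). Tbx21 (T-bet, the regulator of type 1 responses), Gata3 (of type 2 responses), Bcl11b (of T cell identity) and Eomes (of NK and memory cells) passed in neither genotype, with changes between -0.09 and 0.08.

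The cytotoxic genes divided too. Gzmb and both NK receptors rose in both genotypes, Gzma passed in fl/fl mice alone, and perforin and interferon-gamma passed in neither. Klrd1 (CD94) and Klrk1 (NKG2D), neighbouring genes for receptors of NK and cytotoxic T cells, rose in both genotypes. Klrd1 ranged from 5.26 to 5.66 (median 5.54) in untreated and from 5.62 to 6.45 (median 6.00) in AOM+DSS fl/fl arrays. The knockout arrays spanned values from 5.21 to 5.91 (median 5.70) and from 5.89 to 6.69 (median 6.37). The groups overlapped only at their edges, and Klrd1 rose by 0.50 ± 0.10 and 0.65 ± 0.10. Klrk1 rose by 0.44 ± 0.11 and 0.83 ± 0.11. The granule protein gene Nkg7 was 0.21 ± 0.10 higher in fl/fl mice (adjusted p = 0.14) and rose by 0.40 ± 0.10 in knockout mice. Its fl/fl change passed for 1 single array left out (limma adjusted p = 0.0439).

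The granzyme genes encode the proteases of the killing granule. Gzmb ranged from 4.33 to 5.28 (median 4.61) in untreated and from 4.90 to 7.30 (median 5.54) in AOM+DSS fl/fl arrays. Levels in knockout arrays ran from 4.51 to 5.83 (median 4.89) and from 5.38 to 6.65 (median 6.26). These overlapping groups gave rises of 1.05 ± 0.21 (2.07-fold) and 1.20 ± 0.21 (2.30-fold). Gzma ranged from 3.40 to 4.07 (median 3.68) in untreated and from 3.63 to 7.31 (median 4.45) in AOM+DSS fl/fl arrays. Among knockout arrays it ranged from 3.56 to 5.02 (median 4.15) and from 3.88 to 5.96 (median 4.75). Gzma rose by 0.90 ± 0.27 in fl/fl mice (adjusted p = 0.012), while its knockout change of 0.51 ± 0.27 did not pass (adjusted p = 0.15). AOM+DSS fl/fl replicate 7 held the highest value of both granzymes, and without it the fl/fl rises were 0.60 for Gzma (limma adjusted p = 0.043) and 0.87 for Gzmb (limma adjusted p = 0.00072).

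Prf1 encodes perforin, which opens the target cell to granzymes. It ranged from 6.25 to 6.51 in untreated and from 6.05 to 6.73 in AOM+DSS fl/fl arrays, and from 6.12 to 6.73 and from 5.85 to 6.67 in knockout arrays. The changes of -0.09 ± 0.088 and -0.07 ± 0.088 did not pass, and their 95% intervals ran from -0.26 to 0.08 and from -0.24 to 0.11. Ifng, the interferon that activates macrophages, ranged from 4.96 to 5.37 (median 5.14) in untreated and from 4.85 to 5.27 (median 5.05) in AOM+DSS fl/fl arrays. In knockout arrays it ranged from 4.84 to 5.29 (median 5.07) and from 4.54 to 5.48 (median 5.10). All 4 groups overlapped, and the changes of -0.10 ± 0.077 and 0.06 ± 0.077 did not pass. Their intervals ran from -0.25 to 0.05 and from -0.09 to 0.21. The mean of Ifng over all arrays was 5.08, just above the 25th percentile of genes at 5.01. RMA compresses changes of dim probe sets, so a small change of this signal need not be a small change of transcripts.

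The promoters of these genes were searched for letters that transcription factors, among them those of T cells, are known to bind. RefSeq promoters (GRCm38.p6) were matched for 27 of the 38 members, and the 250 bases before the first listed start were searched on both strands for 7 motifs. The ETS-type motif CAGGAAGT was in 4 of the 27 (Cd3e, Prf1, Ptprc and Tbx21) and in 2.7271% of 27025 promoters. The RUNX-type motif TGTGGT was in 8 of the 27 (Cd96, Gzma, Gzmb, Havcr2, Klrk1, Nkg7, Prf1 and Tigit) and in 14.1795% of all. Its longer form TGTGGTTT, which contains it, was in 1 (Gzma) and 1.5689% of all. The T-box motif TCACACCT was in 1 (Nkg7) and 1.136%, the TCF motif CTTTGAA in 2 (Bcl11b and Ptprc) and 4.6364%, the GATA motif AGATAA in 2 (Cd3g and Tigit) and 10.2535%, and TATAAA in 4 (Cd96, Foxp3, Ifng and Ptprc) and 12.9658%. The 200 bases before the start are shown for Cd3e, which rose in all 4 comparisons with untreated colon, and for the 3 genes of the killing granule, of which Gzmb rose after AOM+DSS in both genotypes, Gzma in fl/fl mice and Prf1 in neither. Each reads 5′ to 3′ on the gene's strand, and capitals mark CAGGAAGT, TGTGGT or their reverse complements. Cd3e lies at chr9:45009612-45009811 (minus strand), Gzma at chr13:113100982-113101181 (minus), Gzmb at chr14:56262335-56262534 (minus) and Prf1 at chr10:61297636-61297835 (plus).
Cd3e: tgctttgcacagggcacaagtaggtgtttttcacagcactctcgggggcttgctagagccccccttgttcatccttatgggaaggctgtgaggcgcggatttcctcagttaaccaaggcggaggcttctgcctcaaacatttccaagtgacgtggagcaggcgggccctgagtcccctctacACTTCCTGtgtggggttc
Gzma: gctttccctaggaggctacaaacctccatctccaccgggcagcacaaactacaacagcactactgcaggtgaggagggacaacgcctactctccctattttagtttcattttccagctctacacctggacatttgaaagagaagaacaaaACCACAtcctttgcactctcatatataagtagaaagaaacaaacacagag
Gzmb: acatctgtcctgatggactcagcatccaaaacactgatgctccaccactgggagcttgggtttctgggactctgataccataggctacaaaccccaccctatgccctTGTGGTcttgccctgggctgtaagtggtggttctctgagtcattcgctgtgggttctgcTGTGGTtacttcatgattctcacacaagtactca
Prf1: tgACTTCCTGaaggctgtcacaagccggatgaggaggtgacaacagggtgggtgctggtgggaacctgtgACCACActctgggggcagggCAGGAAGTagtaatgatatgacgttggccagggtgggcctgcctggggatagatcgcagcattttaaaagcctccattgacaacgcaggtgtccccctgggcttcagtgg
Prf1 thus held both motifs in this window although its level did not pass, while Gzma and Gzmb held the RUNX-type letters and no ETS-type match. No motif was in more than 8 of the 27 promoters. The GATA and TATAAA counts were below or near the share of all promoters, and counts of 1 or 2 are too few to tell. No count was tested against that share. A match of letters is a description and not a bound site.

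Inhibitory receptors, which damp T cells after activation, rose in 4 of 6 cases in fl/fl and 5 of 6 in knockout mice. Ctla4, which competes with Cd28 and lies beside it on the chromosome, ranged from 4.33 to 5.04 (median 4.74) in untreated and from 4.70 to 5.80 (median 5.19) in AOM+DSS fl/fl arrays. Knockout arrays ran from 4.49 to 4.82 (median 4.70) and from 5.09 to 5.93 (median 5.61). The knockout groups lay apart, and Ctla4 rose by 0.43 ± 0.12 and 0.88 ± 0.12. Cd96 and Tigit, which bind nectin-family proteins, rose by 0.74 ± 0.13 and 0.69 ± 0.14 in fl/fl and by 0.96 ± 0.13 and 0.79 ± 0.14 in knockout mice. Havcr2 (Tim-3), which macrophages also express, rose by 0.53 ± 0.15 and 0.76 ± 0.15. Pdcd1 (PD-1) was 0.14 ± 0.11 higher in fl/fl mice (adjusted p = 0.37) and rose by 0.44 ± 0.11 in knockout mice (adjusted p = 0.0011). Lag3, which binds MHC class II and lies beside Cd4, passed in neither, at -0.04 ± 0.088 and 0.20 ± 0.088.

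Genes of several other cell types moved with these rises. Of 9 measured B cell genes, 8 rose in fl/fl and 9 in knockout mice after AOM+DSS, with median changes of 0.94 and 1.81. All 10 macrophage genes rose in both genotypes (medians 0.83 and 0.84), as did all 6 genes of follicles and lymph nodes (0.83 and 1.41). Of 8 neutrophil genes, 7 and 8 rose (1.30 and 2.01), of 8 mast cell genes 5 and 6 (0.74 and 0.63), of 8 fibroblast genes 6 in each genotype (0.49 and 0.76) and of 10 squamous epithelium genes 6 in each (1.82 and 1.71). Of 10 smooth muscle genes, 0 rose in either genotype and 2 fell in knockout mice. In each genotype 1 mast cell gene fell. Not every list moved. Of 5 innate lymphoid cell genes, 0 rose in fl/fl and 2 in knockout mice, and 0 fell. Of 10 epithelial genes, 1 rose in each genotype, and 0 fell in fl/fl and 2 in knockout mice. Of all genes, 12.2% were called higher in fl/fl and 16% in knockout mice. Macrophages and other white blood cells also express Ptprc and Havcr2, so these members are not read as T cell genes alone. When the B cell mean entered the fit as a covariate, 11 members passed in fl/fl and 10 in knockout mice, and all of these were among those that passed without it. The share of all genes called in the covariate fits was not counted, so these counts are not read as a result about the members. Cd3e kept changes of 0.90 (limma adjusted p = 0.000396) and 1.03 (limma adjusted p = 0.00262), and Gzmb of 1.02 and 1.15. In knockout mice the B cell mean was at most 7.22 in untreated and at least 7.66 in AOM+DSS arrays. The knockout fit therefore extrapolates, and there the part of B cells cannot be told apart from the treatment. The part of the other cell types in these rises was not tested, apart from fits with the smooth muscle or squamous epithelium mean as a covariate. With the smooth muscle mean Cd3e rose by 1.21 in fl/fl and 1.57 in knockout mice. With the squamous epithelium mean the counts stayed within 1.5 times their value.

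**Figure D2:**
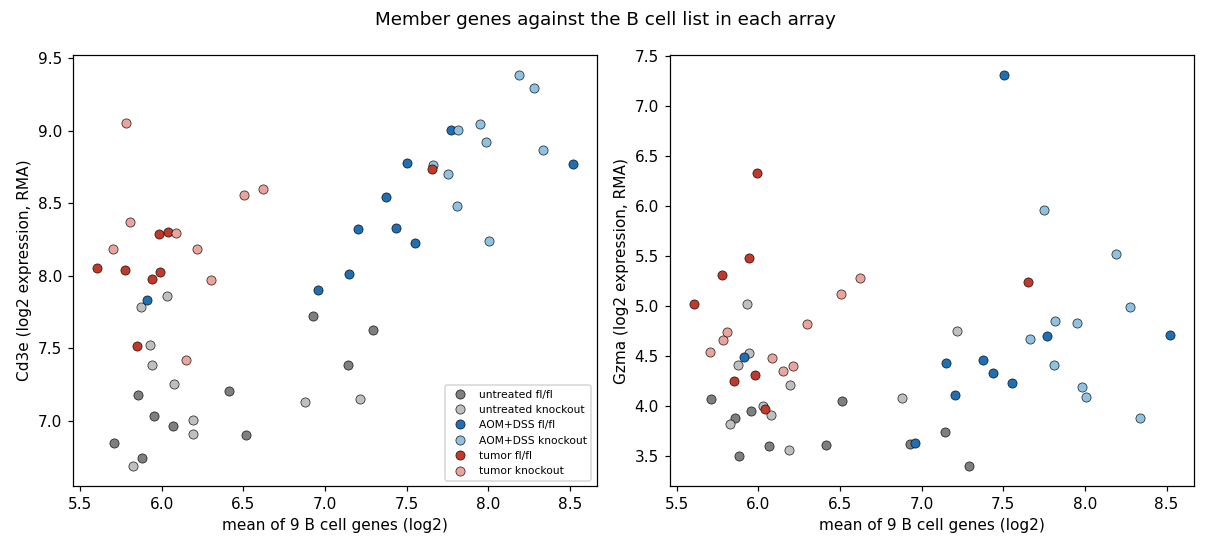
Log2 expression of Cd3e (left) and Gzma (right) against the mean of 9 B cell genes (log2) in each of the 57 arrays, coloured by group. AOM+DSS arrays had B cell means from 5.91 to 8.52, and fl/fl tumor replicate 3, at 7.65, lay apart from the other tumors.

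The next comparison set tumors against AOM+DSS colon of the same genotype. It shares the AOM+DSS arrays with the comparison above, so the values are given for themselves. In fl/fl mice 6 members rose and 8 fell, where 21% of all genes were called higher and 20.2% lower, and the members' median of -0.046 stood beside 0.018 for all genes. In knockout mice 2 rose and 22 fell, where 21.5% of all genes were called higher and 21.4% lower, and the median of -0.31 stood beside 0.0020 for all genes. The members' count in fl/fl mice was 14 of 38, near the background. In knockout mice the falls were above the background and the 2 rises below it. Levels of 2 members (Zap70 and Bcl11b) lay apart and higher in knockout tumors, against 7.46% of all genes, so this count is not above the background.

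**Figure D3:**
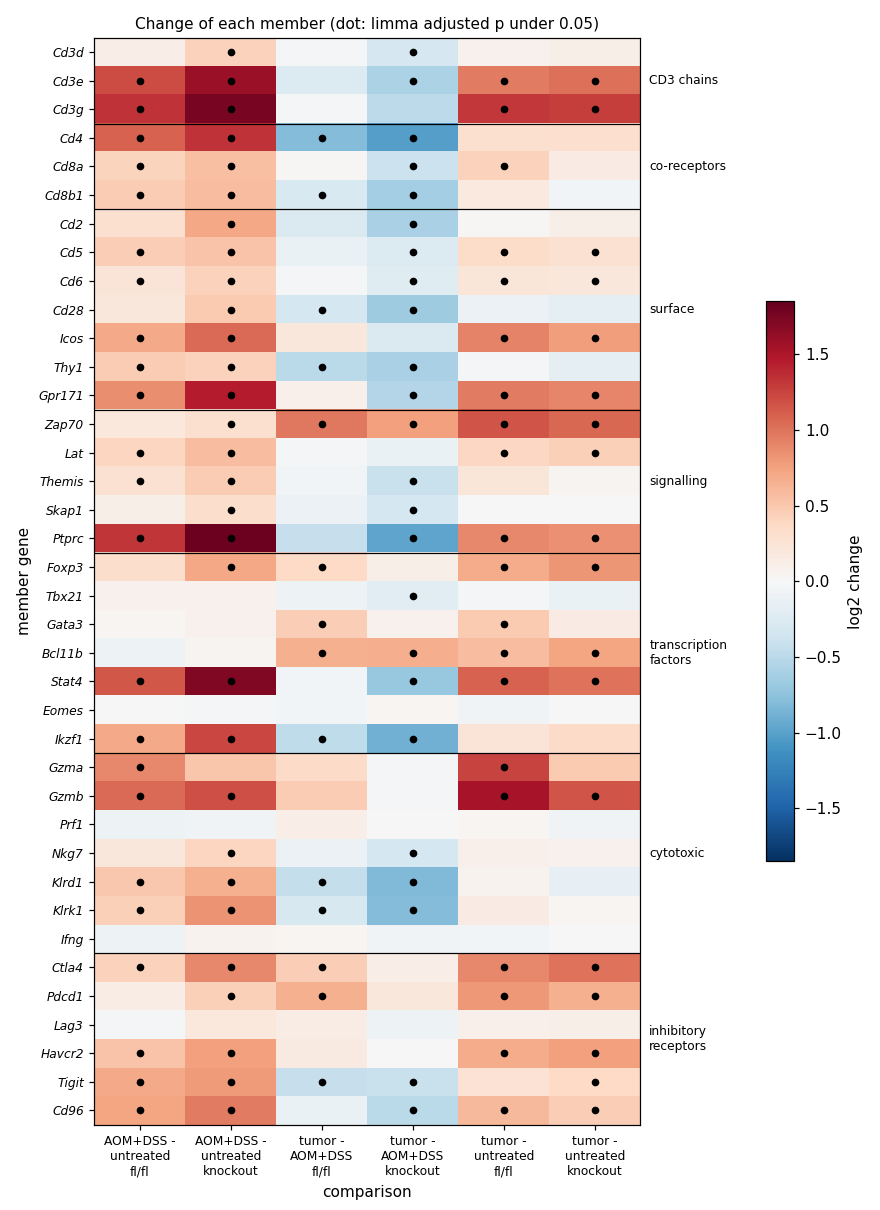
Log2 change of every member in the 6 comparisons between conditions, with members on 1 axis and comparisons on the other, ordered by role. Changes from untreated to AOM+DSS colon reached 1.34 in fl/fl and 1.82 in knockout mice, and the tumor against AOM+DSS columns hold both signs, with Zap70 and Bcl11b higher in both genotypes.

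Zap70 and Bcl11b rose in tumors of both genotypes. Zap70, the kinase that binds phosphorylated CD3 chains, ranged from 5.56 to 6.11 (median 5.90) in AOM+DSS colon and from 6.33 to 7.20 (median 6.91) in tumors of fl/fl mice. In knockout mice it ranged from 5.67 to 6.32 (median 5.96) and from 6.39 to 7.14 (median 6.64). Colon and tumor arrays did not overlap, and Zap70 rose by 0.97 ± 0.10 (adjusted p = 3.6e-12, 1.96-fold) and 0.76 ± 0.097 (adjusted p = 1.5e-09, 1.70-fold). Bcl11b ranged from 7.24 to 7.70 (median 7.34) in colon and from 7.66 to 8.40 (median 8.11) in tumors of fl/fl mice. In knockout mice it ranged from 7.24 to 7.62 (median 7.39) and from 7.83 to 8.32 (median 8.08). The groups touched in fl/fl mice and lay apart in knockout mice, and Bcl11b rose by 0.66 ± 0.087 and 0.68 ± 0.085. Both genes rose while the CD3 chains did not, since Cd3e was -0.25 ± 0.17 (adjusted p = 0.26) in fl/fl mice and fell by 0.58 ± 0.17 in knockout mice. Cd3d and Cd3g were -0.03 ± 0.10 and -0.04 ± 0.21 in fl/fl mice, and -0.31 ± 0.099 (adjusted p = 0.0088) and -0.48 ± 0.20 (adjusted p = 0.054) in knockout mice.

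In fl/fl tumors 4 more members rose, which were Foxp3, Pdcd1, Ctla4 and Gata3. Foxp3 ranged from 6.68 to 7.71 (median 7.33) in tumors beside 6.51 to 7.45 in colon, and rose by 0.37 ± 0.13 (adjusted p = 0.022). Leaving out tumor replicate 3 or tumor replicate 2 ended that call, at 0.32 (limma adjusted p = 0.0615) and 0.30 (limma adjusted p = 0.0764). Pdcd1 ranged from 6.06 to 6.97 (median 6.44) in tumors and from 5.27 to 6.01 in colon, with no overlap, and rose by 0.66 ± 0.12. Across this comparison 5.61% of all genes lay apart and higher, and Zap70 and Pdcd1 were the 2 of 38 members that did, so this count is near the background. Ctla4 rose by 0.45 ± 0.13 and Gata3 by 0.46 ± 0.081, although the dimmer probe set of Gata3 gave 0.13 ± 0.087. Of the other inhibitory receptors in fl/fl tumors, Tigit fell and Cd96, Lag3 and Havcr2 did not pass. In knockout tumors the changes of these 4 were 0.11 ± 0.13 for Foxp3, 0.21 ± 0.11 for Pdcd1, 0.12 ± 0.13 for Ctla4 and 0.07 ± 0.079 for Gata3, and none passed.

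Cd4 had the largest fall in both genotypes, and the next largest was that of Thy1 in fl/fl and of Ptprc in knockout mice. Cd4 ranged from 7.01 to 8.19 (median 7.60) in fl/fl and from 7.19 to 8.30 (median 7.82) in knockout tumors. It overlapped with colon at the edges and fell by 0.80 ± 0.17 and by 1.03 ± 0.16. Klrd1 ranged from 5.10 to 5.95 (median 5.56) in fl/fl and from 5.21 to 5.78 (median 5.49) in knockout tumors. The knockout tumors lay below all AOM+DSS colon arrays of that genotype, and Klrd1 fell by 0.44 ± 0.11 and by 0.81 ± 0.10. Cd8a ranged from 5.36 to 6.79 (median 5.79) in fl/fl and from 5.03 to 6.24 (median 5.60) in knockout tumors, with changes of 0.02 ± 0.15 in fl/fl and -0.40 ± 0.15 (adjusted p = 0.023) in knockout mice. Cd8b1 fell in both, by 0.29 ± 0.11 and by 0.63 ± 0.10.

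The other fl/fl falls were Thy1 (-0.50 ± 0.11), Ikzf1 (-0.46 ± 0.17), Tigit (-0.42 ± 0.15), Cd28 (-0.32 ± 0.11) and Klrk1 (-0.29 ± 0.12). Several of these calls lay near the threshold. Klrk1 lost its call when any of 11 single arrays was left out (limma adjusted p between 0.0581 and 0.139), Cd8b1 for 4 arrays, Tigit for 2, and Ikzf1 and Cd28 for 1 each. Cd2 and Ptprc passed when any of 2 and any of 5 single arrays was left out, at -0.37 and -0.53 without tumor replicate 3. In knockout tumors Ptprc fell by 0.97 ± 0.17, Ikzf1 by 0.88 ± 0.16, Klrk1 by 0.80 ± 0.12, Stat4 by 0.71 ± 0.17, Cd28 by 0.65 ± 0.11, Thy1 by 0.61 ± 0.10 and Cd2 by 0.60 ± 0.12. The remaining knockout falls were smaller and held Gpr171, Cd96, Themis, Tigit, Nkg7, Skap1, Cd5, Cd6 and Tbx21, from -0.54 ± 0.17 for Gpr171 to -0.20 ± 0.064 for Tbx21. The dimmer probe set of Gpr171 gave -0.05 ± 0.10 in this knockout comparison. The call of Cd5 was lost for 8 single arrays left out (limma adjusted p between 0.0508 and 0.0926), that of Cd8a for 2 and that of Tigit for 1 (limma adjusted p = 0.0509). Skap1, Ptprc, Ikzf1, Klrd1 and Klrk1 lay lower in every knockout tumor than in any AOM+DSS colon array of that genotype, against 7.24% of all genes.

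Gzma, Gzmb, Prf1 and Ifng passed in neither genotype. Gzmb ranged from 4.91 to 7.07 (median 6.22) in fl/fl and from 5.56 to 6.71 (median 6.05) in knockout tumors, and Gzma from 3.97 to 6.33 (median 5.13) and from 4.35 to 5.28 (median 4.67). These ranges overlapped with colon, and the changes were 0.47 ± 0.22 and -0.04 ± 0.22 for Gzmb and 0.35 ± 0.28 and -0.03 ± 0.28 for Gzma. Without AOM+DSS replicate 7 both passed in fl/fl tumors, at 0.65 ± 0.23 for Gzma (limma adjusted p = 0.019) and 0.65 ± 0.20 for Gzmb (limma adjusted p = 0.0072). Ifng ranged from 4.83 to 5.47 (median 5.04) and from 4.76 to 5.25 (median 5.07) in tumors, with changes of 0.04 ± 0.082 and -0.07 ± 0.079. Prf1 was 0.12 ± 0.093 and 0.01 ± 0.090 and did not pass.

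Genes of several other cell types moved with this comparison too. All 9 B cell genes and all 10 smooth muscle genes fell in tumors of both genotypes. Fibroblast genes fell in 6 of 8 cases in fl/fl and 7 of 8 in knockout tumors, follicle and lymph node genes in 3 and 6 of 6, epithelial genes in 5 and 6 of 10, squamous epithelium genes in 3 and 6 of 10 and macrophage genes in 2 and 5 of 10. Mast cell genes rose in 6 and 7 of 8 cases and neutrophil genes in 4 and 2 of 8. In each genotype 1 macrophage and 1 epithelial gene rose and 1 mast cell gene fell. Of 5 innate lymphoid cell genes, 1 rose in each genotype, and 1 fell in fl/fl and 2 in knockout tumors. Of all genes, 21% rose and 20.2% fell in fl/fl mice, and 21.5% rose and 21.4% fell in knockout mice. So the macrophage falls in fl/fl and the neutrophil rises in knockout mice were near the background. The part of the cell types without a covariate fit was not tested. With the B cell mean as a covariate, 11 members were higher and 1 (Thy1) lower in fl/fl tumors, and 2 were higher and 2 lower in knockout tumors. Here too the share of all genes called in the covariate fits was not counted, so the counts do not set the members apart. The B cell mean was at most 6.62 in knockout tumors and at least 7.66 in knockout AOM+DSS colon, so the knockout change extrapolates. In fl/fl mice it was 5.60 to 6.04 in all tumors but replicate 3 (7.65), and 5.91 to 8.52 in AOM+DSS colon. These ranges barely overlapped apart from replicate 3, so the fl/fl change rests largely on extrapolation too. The fit used 1 slope over all arrays. Zap70 (1.02 ± 0.12) and Bcl11b (0.64 ± 0.11) were among the 11, as was Stat4, whose change turned from -0.06 to 0.55. With the smooth muscle mean as a covariate 3 members passed in fl/fl and 8 in knockout tumors. That mean was at most 10.47 in tumors and higher in every colon array, so the fit extrapolates, and the part of lost muscle in these changes cannot be told apart from the tumor itself.

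Against untreated colon, tumors had 20 members higher and 0 lower in fl/fl mice, where 22.9% of all genes were called higher and 22.5% lower. In knockout mice 18 were higher and 0 lower, where 23.6% were called higher and 23.7% lower. Levels lay apart and higher for 6 members in fl/fl mice, against 8.98% of all genes, and for 9 in knockout mice, against 10% of all genes. The members' medians were 0.32 and 0.30. These comparisons share arrays with both sets above. Gzmb had the largest rise in fl/fl tumors, at 1.52 ± 0.22 (2.87-fold), and Cd3g in knockout tumors, at 1.27 ± 0.20 (2.42-fold). Zap70 rose by 1.16 ± 0.10 and 1.07 ± 0.097, Ctla4 by 0.88 ± 0.13 and 1.0 ± 0.13, and Foxp3 by 0.69 ± 0.13 and 0.82 ± 0.13. Cd3e rose by 0.96 ± 0.17 and 1.02 ± 0.17. Cd4, at 0.29 ± 0.17 and 0.32 ± 0.16, and Klrd1, at 0.06 ± 0.11 and -0.16 ± 0.10, did not pass in tumors against untreated colon. Cd8a rose by 0.43 ± 0.15 in fl/fl tumors and was 0.15 ± 0.15 in knockout tumors (adjusted p = 0.43). The fl/fl call of Cd8a was lost for 1 single array left out, at 0.30 (limma adjusted p = 0.085). Gzma rose by 1.25 ± 0.28 in fl/fl tumors and was 0.48 ± 0.28 in knockout tumors (adjusted p = 0.15). Ifng, at -0.06 ± 0.082 and -0.01 ± 0.079, did not pass. With the smooth muscle mean as a covariate 2 members passed in fl/fl and 3 in knockout tumors, and the share of all genes called in that fit was not counted.

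Ratios of members within an array showed which genes moved unequally. The difference Cd8a minus Cd4 was -1.89 ± 0.35 in untreated and -2.57 ± 0.56 in AOM+DSS fl/fl arrays (log2, SD, n = 10 each), and fell by 0.68 (permutation p = 0.00415, adjusted over 12 tests 0.00622). In knockout arrays it fell by 0.79 (permutation p = 0.00011, adjusted 0.00044). In tumors it was higher than in AOM+DSS colon by 0.82 in fl/fl (exact permutation p = 0.00775, adjusted 0.0103) and by 0.63 in knockout mice (exact permutation p = 0.000227, adjusted 0.000546). Foxp3 minus Cd3e moved in the same way. It fell by 0.89 in both genotypes after AOM+DSS (permutation p = 7e-05 and 5e-05, both adjusted to 0.00042). It was higher in tumors by 0.62 and 0.69 (exact permutation p = 0.000548 and 0.000152, adjusted 0.00094 and 0.000455). Gzma minus Cd3e fell by 1.09 in knockout colon (permutation p = 0.00044, adjusted 0.00088) and differed by -0.32 in fl/fl colon (permutation p = 0.338, also after adjustment). In tumors it was 0.55 higher than in AOM+DSS colon of knockout mice (exact permutation p = 0.0314, adjusted 0.0377) and 0.60 higher in fl/fl mice (exact permutation p = 0.156, adjusted 0.17). Without AOM+DSS replicate 7, Gzma minus Cd3e passed in both fl/fl comparisons, with a fall of 0.57 from untreated colon (exact permutation p = 0.0105, adjusted 0.0116) and a rise of 0.85 in tumors (exact permutation p = 0.0107, adjusted 0.0116). Cd8a minus Cd4 then fell by 0.80 and was 0.94 higher in tumors (exact permutation, adjusted p = 0.00033 and 0.00159), and Foxp3 minus Cd3e kept its calls. Without tumor replicate 3 the 3 ratios stayed on the same side of the threshold. All tests were two-sided. Such a ratio compares array signals, in which RMA compresses dim genes, so a small change of Cd8a beside Cd4 need not be a small change of transcripts.

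The genotype comparisons asked whether loss of the insulin receptor in the epithelium went with other levels of T and NK cell genes. In untreated colon 0 of 38 members passed limma's test and 0 had an unadjusted p under 0.05, where 0.00451% of all genes were called lower. The smallest p was that of Gzma, at 0.48 ± 0.27 (limma adjusted p = 0.99). In AOM+DSS colon 5 members were higher in knockout mice and 0 lower, where 0.419% of all genes were called higher and 0.122% lower. The members' median was 0.26 beside -0.0011 for all genes, 37 of 38 changes were above 0 and 23 had an unadjusted p under 0.05, where 49.6% of all genes had a change above 0 and 13.1% such a p. Eomes was the exception, at -0.11 ± 0.074.

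**Figure D4:**
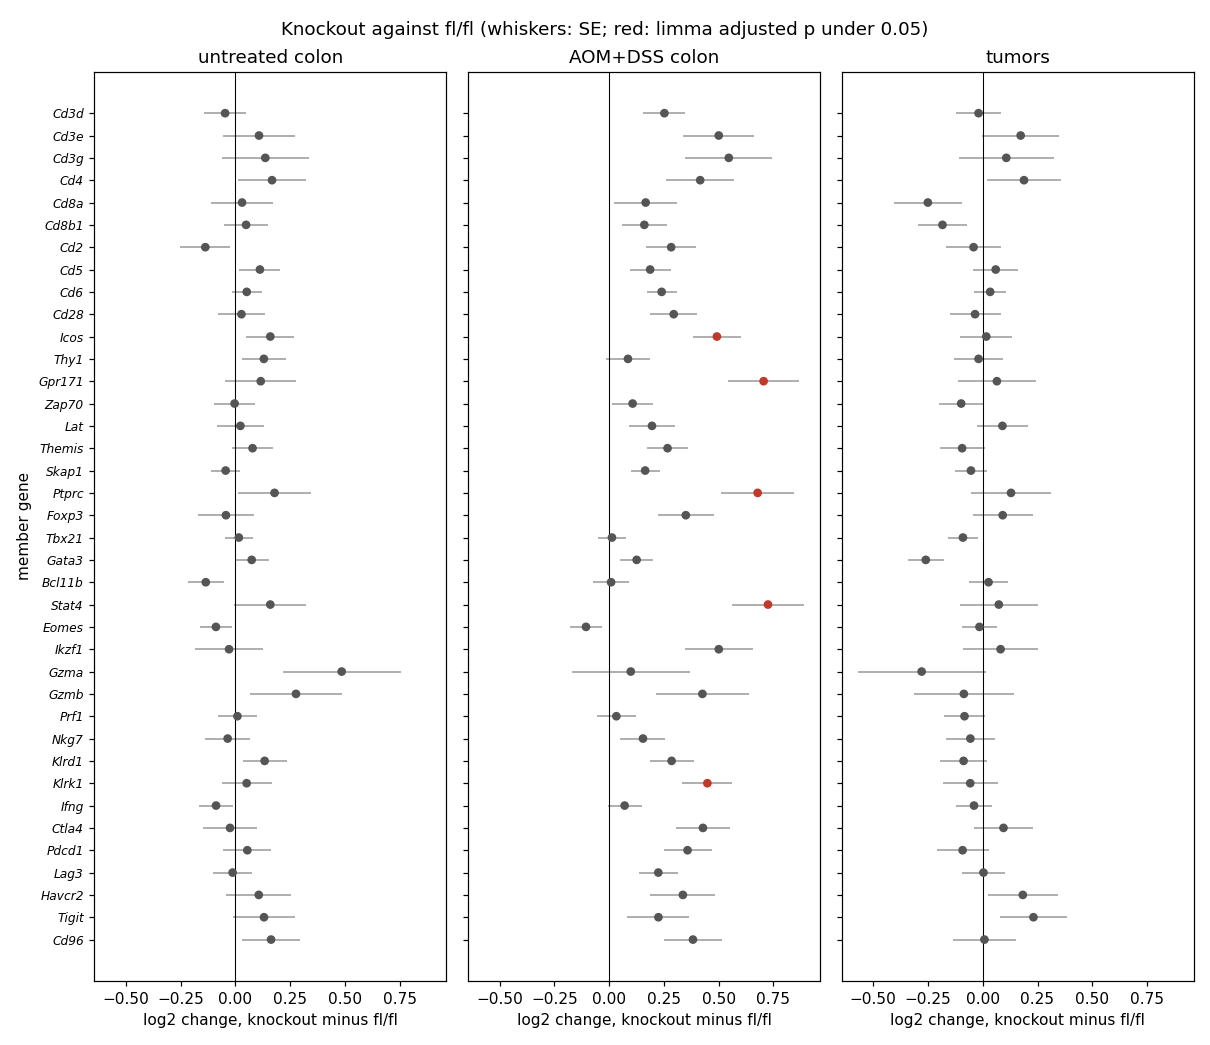
Log2 change of each member between knockout and fl/fl samples in untreated colon, AOM+DSS colon and tumors, with SE as whiskers and red for limma adjusted p under 0.05. The 5 red points are Icos, Gpr171, Ptprc, Stat4 and Klrk1 in AOM+DSS colon, at 0.45 to 0.72, and no member passed in untreated colon or tumors.

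The 5 members were Stat4 (0.72 ± 0.16, adjusted p = 0.031), Gpr171 (0.70 ± 0.16, adjusted p = 0.032), Ptprc (0.68 ± 0.17, adjusted p = 0.045), Icos (0.49 ± 0.11, adjusted p = 0.031) and Klrk1 (0.45 ± 0.11, adjusted p = 0.049). Their levels overlapped between genotypes in every case, and 0.00451% of all genes lay apart and higher. Stat4, for example, ranged from 6.12 to 8.19 in fl/fl and from 7.29 to 8.41 in knockout AOM+DSS arrays. The dimmer probe set of Gpr171 gave a genotype change of 0.16 ± 0.10. Cd3e was 0.50 ± 0.16 (adjusted p = 0.12), Cd4 0.42 ± 0.16, Cd8a 0.17 ± 0.14, Foxp3 0.35 ± 0.13, Gzma 0.10 ± 0.27, Gzmb 0.43 ± 0.21, Klrd1 0.29 ± 0.10 and Ifng 0.07 ± 0.077, and none of these passed. These calls depended on which arrays were fitted. The count was 0 without fl/fl replicate 1, 2, 3 or 5 or without knockout replicate 5, 7 or 8, 1 without knockout replicate 6, 2 without fl/fl replicate 8, 3 without knockout replicate 1 or 4, and 10 without fl/fl replicate 4. It was 0 when these 2 groups alone were fitted and 0 with the B cell mean as a covariate, when the median was 0.16. For these alternative fits the share of all genes called was not counted.

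In tumors 0 members passed limma's test between genotypes, where 0.00902% of all genes were called lower, and 1 had an unadjusted p under 0.05, which was Gata3 at -0.26 ± 0.083 (adjusted p = 0.86). The difference of the AOM+DSS response between genotypes passed for 0 members, with 11 at an unadjusted p under 0.05, where 6.09% of all genes had one, and a median of 0.20. The smallest p was that of Ctla4, at 0.45 ± 0.17 (limma adjusted p = 0.80), and Stat4 was 0.57 with a 95% interval from 0.11 to 1.02. The difference of the tumor against AOM+DSS change passed for 0 members, with 13 at an unadjusted p under 0.05, where 6.63% of all genes had one, and a median of -0.33. The smallest p was that of Gata3, at -0.39 ± 0.11 (limma adjusted p = 0.47), followed by Klrk1 at -0.51 ± 0.17 and Icos at -0.48 ± 0.16. So a member that passed in 1 genotype and not in the other was not shown to differ between them.

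Within groups, arrays with more Cd3e had more of most members. Each value was centred on its group's mean, and the 37 relations with Cd3e over 57 arrays were tested by 100000 permutations within groups. Of these, 28 passed at an adjusted p of 0.05 and 9 did not. The share of all genes that vary with Cd3e was not measured, so these counts do not set the members apart. Cd3g had Pearson r = 0.83 and Spearman rho = 0.80 (permutation p = 1e-05 for both, the smallest these permutations give), and r = 0.81 without the 2 arrays farthest from the median of Cd3e. Its r within the 6 groups lay between 0.70 and 0.92. Cd96 followed at r = 0.78 and rho = 0.74, then Icos (0.74 and 0.71), Stat4 (0.74 and 0.80) and Cd4 (0.72 and 0.72), each with permutation p = 1e-05. The 9 that did not pass were Bcl11b, Tbx21, Gata3, Prf1, Thy1, Eomes, Zap70, Skap1 and Pdcd1, with r from -0.09 to 0.24. Zap70 and Bcl11b, the members that rose in tumors of both genotypes, had r = 0.19 (rho = 0.23, permutation p = 0.197 and 0.0907) and r = -0.09 (rho = -0.07, permutation p = 0.506 and 0.610). Ifng had r = 0.29 (rho = 0.29, permutation p = 0.0329 and 0.0333), and r = 0.20 without the 2 arrays. The points share arrays and RMA scaling.

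Other genes of T and NK cells were listed beside the members. After AOM+DSS, 12.2% of all genes were called higher in fl/fl and 16% in knockout colon. Of 40 further T cell genes, 26 rose and 2 fell in fl/fl and 31 rose and 1 fell in knockout colon after AOM+DSS. They include Ly9, a receptor of the SLAM family (0.86 ± 0.12 in fl/fl mice), and Lcp2, an adaptor of receptor signalling (1.12 ± 0.12 in knockout mice). In tumors against AOM+DSS colon, 6 rose and 14 fell in fl/fl mice and 3 rose and 20 fell in knockout mice. Of all genes, 21% rose and 20.2% fell in fl/fl mice, and 21.5% rose and 21.4% fell in knockout mice. The rises of these T cell genes were thus not above the background. Lef1, a partner of beta-catenin that Wnt signalling uses also in epithelium, rose by 2.46 ± 0.10 and 2.08 ± 0.10, while Satb1, a chromatin organiser of T cells, fell by 0.79 ± 0.10 and by 1.21 ± 0.10. Between genotypes, Grap2 (0.50 ± 0.11), Gimap6 (0.59 ± 0.14) and Satb1 (0.38 ± 0.098) were higher in knockout AOM+DSS colon. Of 21 further NK and intraepithelial lymphocyte genes, 6 rose in fl/fl and 11 in knockout colon after AOM+DSS, and 0 fell. In tumors against AOM+DSS colon 4 rose and 3 fell in fl/fl mice, where 21% of all genes were called higher and 20.2% lower, so these counts do not set the list apart. In knockout mice 3 rose and 6 fell, where 21.5% were called higher and 21.4% lower. Cd244a, a receptor of NK cells and other white blood cells, rose by 2.19 ± 0.15 in fl/fl tumors.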

How the data were processed

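RNA of 57 samples was measured on Affymetrix arrays, 1 array a sample. The authors deposited log2 values, 1 for each probe set, and the submitters' processing notes name RMA with no version. Their table held 41345 probe sets. Of these, 23521 carried 1 gene symbol, 1814 several and 16010 none, and the brightest single-symbol probe set was taken for each of 22180 genes, with no filter on dim genes. Groups were taken from the titles.

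The members and all gene lists were chosen with earlier results of these data known. Comparisons used lmFit, contrasts and eBayes of limma 3.58.1 in R 4.3.3 on 6 groups over all arrays (51 residual degrees of freedom), two-sided, adjusted by Benjamini-Hochberg over 22180 genes, and the code was tested on simulated data. Intervals are the estimate ± 1.96 SE (95%). Ratios within an array were tested by permutation, exact where tumors took part and with 100000 permutations elsewhere. Relations with Cd3e were added after the data were seen. Background shares count genes called the same way.

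Cd3e, Cd4, Cd8a, Foxp3, Gzma, Gzmb, Klrd1 and Ifng were set to be described, with the 3 members of smallest adjusted p and the 3 of largest change among those past the threshold. Only some of these are named for tumors against untreated colon, for genotypes in untreated colon and in tumors, and for the differences between genotypes. Further members are named where their role group is described. Of other lists, up to 4 genes of smallest adjusted p could be named.

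Alternatives were array weights, a shift to 1 median, further quantile normalization, averaged probe sets, no dim genes, a robust eBayes trend, fits limited to the groups at hand, a replicate block, B cell, smooth muscle or squamous epithelium means as covariates, and each array left out. Leaving out both arrays that stood apart, and each of them for the ratios, was chosen after seeing the data. Same-numbered arrays of different groups correlated between -0.33 and 0.33 in their deviations from group means, so the numbers were not taken as pairs. The highest correlation between arrays was 0.994. Arrays have no read depth, and their number limits the precision.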

Additional observations from a re-analysis of the deposited data

Results flagged for a closer look

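Each member, the mean of all members and the means of 10 cell type lists were searched in each group for an array far from the rest by Dixon's criterion, which chance meets in about 1 of 20 groups. Of 294 groups searched, 16 held such an array. AOM+DSS fl/fl replicate 7 was the highest of its group in Gzma (7.31, the others 3.63 to 4.71), Gzmb (7.30, the others 4.90 to 6.00) and Cd8a (6.85, the others 5.34 to 6.01). Fl/fl tumor replicate 3 was the highest in the B cell mean (7.65, the others 5.60 to 6.04), the follicle and lymph node mean (8.57, the others 7.16 to 7.55) and Ikzf1 (7.07, the others 5.97 to 6.45). The squamous epithelium mean was highest in fl/fl tumor replicate 4 (9.18, the others 5.92 to 7.26) and in knockout tumor replicate 6 (8.74, the others 5.74 to 6.83). AOM+DSS fl/fl replicate 9 was the lowest in Nkg7, at 6.18, and AOM+DSS knockout replicate 2 in Ifng, at 4.54. Among untreated knockout arrays, replicate 7 was the lowest in Icos (6.51), replicate 2 in Bcl11b (6.84) and replicate 6 in Lag3 (6.26). Untreated fl/fl replicate 4 was the highest in the macrophage mean, at 8.76. The epithelium mean was highest in untreated fl/fl replicate 2 (11.67) and in fl/fl tumor replicate 7 (11.65).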

How the results depend on the processing

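Counts of members that passed stayed within 1.5 times their value under both scalings, the dim filter, the mean of probe sets, the intensity trend, the squamous covariate and the omission of both arrays that stood apart. No pairing by replicate number was shown, and with the replicate block the counts were 23 and 30 (AOM+DSS against untreated colon, fl/fl and knockout), 14 and 26 (tumor against AOM+DSS colon), 20 and 18 (tumor against untreated colon), 5 (knockout against fl/fl, AOM+DSS colon) and 0 in the other 4. With the B cell covariate the counts were 11 and 10 after AOM+DSS, 4 in knockout tumors against AOM+DSS colon and 0 between genotypes in AOM+DSS colon. With it, changes of tumors against AOM+DSS colon turned to Stat4 0.55 and Ikzf1 0.20 in fl/fl mice, and to Cd3e 0.026, Cd2 0.0069, Cd5 0.15, Gpr171 0.13, Ptprc 0.16, Stat4 0.20 and Ikzf1 0.11 in knockout mice. In knockout mice the B cell mean of AOM+DSS colon overlapped with neither untreated colon nor tumors, so these knockout fits extrapolate. In fl/fl mice the tumors other than replicate 3 reached 6.04 at most and AOM+DSS colon 5.91 at least, so that tumor fit rests largely on extrapolation too. With the smooth muscle covariate the counts were 3 and 8 (tumor against AOM+DSS colon), 2 and 3 (tumor against untreated colon) and 3 (genotypes, AOM+DSS colon). Changes then turned to Thy1 0.26 and Ctla4 -0.064 (fl/fl) and Thy1 0.15 (knockout) against AOM+DSS colon, and to Thy1 0.73 (fl/fl) and Thy1 0.66, Pdcd1 -0.000114 and Tigit -0.14 (knockout) against untreated colon. Fitting only the groups compared gave 9 (fl/fl tumor against AOM+DSS colon) and 0 (genotypes, AOM+DSS colon), and array weights gave 9 in the latter. Leaving out 1 array gave 21 to 25 and 30 to 30 after AOM+DSS, 11 to 16 and 21 to 26 for tumor against AOM+DSS colon, 19 to 21 and 17 to 20 for tumor against untreated colon, 0 to 10 between genotypes in AOM+DSS colon and 0 in the rest. The share of all genes called under these settings was not counted, so a changed count is not read as a result about the members. The causes were not tested. The members in the ratios have 1 probe set each, so averaging probe sets left the ratios as they were. Without AOM+DSS fl/fl replicate 7 the fl/fl change of Gzma minus Cd3e after AOM+DSS was -0.57 and passed, and that in tumors was 0.85 and passed, against 0.66 without tumor replicate 3. Leaving out 1 of these arrays gave -0.80 and 0.80 to 0.94 for Cd8a minus Cd4, and -0.85 and 0.58 to 0.66 for Foxp3 minus Cd3e. Dim signal limits Gzma, Themis and Eomes, and Ifng lay just above the dim level.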

Other observations

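Genes that guide T cells into the gut and genes that present to them were listed apart from the members. Of 21 homing genes, 16 rose and 1 fell in fl/fl and 18 rose and 1 fell in knockout colon after AOM+DSS, where 12.2% and 16% of all genes were called higher. Ccr2, a chemokine receptor of monocytes and T cells, rose by 1.0 ± 0.14 and 1.48 ± 0.14, and Cxcl16, the ligand of Cxcr6, by 0.50 ± 0.076 and 0.70 ± 0.076. Madcam1, the vessel ligand that gut-homing cells bind, rose by 0.79 ± 0.15 in fl/fl mice. In tumors against AOM+DSS colon, 4 homing genes rose and 5 fell in fl/fl mice, where 21% of all genes were called higher and 20.2% lower, so this count is near the background. In knockout mice 2 rose and 11 fell, where 21.5% were called higher and 21.4% lower. The genes named next are examples and do not describe the list. Cxcl16 rose by 0.67 ± 0.081 in fl/fl tumors, whereas Cxcr5, the follicle-homing receptor, fell by 1.02 ± 0.18 and by 1.63 ± 0.17, and the integrin gene Itga4 by 0.74 ± 0.12 and by 1.15 ± 0.12. Between genotypes in AOM+DSS colon, Ccr7 was 0.52 ± 0.12 higher in knockout mice (limma adjusted p = 0.030).

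Of 8 genes of MHC class I presentation, 8 rose in fl/fl and 5 in knockout colon after AOM+DSS, led by Nlrc5, their transcriptional activator, at 0.92 ± 0.18 and 1.02 ± 0.18, and B2m, the light chain, at 0.35 ± 0.063 and 0.33 ± 0.063. Of all genes, 12.2% and 16% were called higher after AOM+DSS. In tumors against AOM+DSS colon 1 of the 8 class I genes (Tap2, -0.31 ± 0.12) fell in fl/fl and 3 fell in knockout mice. Of 10 ligands of co-stimulatory and inhibitory receptors, 4 rose and 4 fell in fl/fl tumors against AOM+DSS colon, and 3 rose and 4 fell in knockout tumors. Of all genes, 21% rose and 20.2% fell in fl/fl tumors, and 21.5% rose and 21.4% fell in knockout tumors. Pvr and Nectin2, nectin-family ligands of Tigit, rose by 0.54 ± 0.097 and 0.33 ± 0.085 in fl/fl tumors, and Icosl, the ligand of Icos, fell by 0.57 ± 0.094. The epithelium expresses several of these ligands, and which cells held the change was not measured.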
